A study of Mus musculus with 18 samples.

Results

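The type 2 vomeronasal receptor genes (Vmn2r) of the mouse were taken as every protein-coding gene on chromosomes 1 to 19 whose symbol starts with Vmn2r in the mm10 annotation, which gave 123 of 20661 genes. A listed region counted for a gene when it overlapped the gene span or the 2 kb either side of it. Of the 123 genes, 32 lie on chromosome 17 and 91 elsewhere. Vmn2r122 has a span on chromosome 4 that ends before the first listed region of that chromosome, so 122 genes could carry values. The rule that picks them uses no measured value, but it was chosen with earlier results of these data known.

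The study profiled cardiomyocyte-enriched cell populations of C57BL/6J mice by chromatin immunoprecipitation and sequencing (ChIP-seq). It asked how G9a (Ehmt2), an enzyme that dimethylates lysine 9 of histone H3 (H3K9me2), the Polycomb mark H3K27me3 and the muscle transcription factor Mef2c are distributed with and without G9a. Mice labelled G9a flox/flox; alphaMHC-MerCreMer +/- are called KO here, and mice labelled alphaMHC-MerCreMer +/- alone are called Cre. Each of the 4 targets has 2 libraries per genotype. Both genotypes carry the Cre transgene, whose alphaMHC promoter is active in cardiomyocytes, so other cells of a preparation are not targeted. The labels give no age, and nothing beyond the term biological replicates says that libraries came from separate animals, so the spread between libraries may be partly technical. ChIP lists hold no RNA, so the labelled cell type could not be checked by its expressed markers. The 2 input libraries were not analysed here.

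V2R proteins, the products of Vmn2r genes, are class C G protein-coupled receptors with a long extracellular domain. They detect peptide pheromones in neurons of the basal layer of the vomeronasal organ, where the G protein Gnao1 and the channel Trpc2 carry the signal. Each such neuron makes few receptors, often 1 of the many variable V2Rs together with a member of family C, the group of Vmn2r1 to Vmn2r7. The genes sit in tandem clusters of recent duplicates, have no known role in the heart, and serve here as a large family of clustered genes that is silent in most tissues.

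Split at gaps of over 1 Mb, the family fell into 11 clusters of 3 or more genes, a pair on chromosome 14 (Vmn2r88 and Vmn2r89), and single genes such as Vmn2r18, Vmn2r28, Vmn2r118, Vmn2r120 and Vmn2r129. The largest are Vmn2r29 to Vmn2r52 on chromosome 7 (24 genes over 2.96 Mb) and Vmn2r90 to Vmn2r110 with Vmn2r124 on chromosome 17 (22 genes over 2.89 Mb). A further 8 genes, Vmn2r111 to Vmn2r117 with Vmn2r-ps130, lie on chromosome 17 at 22547941 to 23479597 of mm10, 11.4 Mb from Ehmt2, the gene of G9a that is floxed in the KO mice. The cluster of Vmn2r90 lies 14.3 Mb from Ehmt2. On chromosome 17 the loss of G9a and sequence linked to its floxed allele cannot be told apart.

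The promoters show how close some copies are. The window from 250 bases before to 50 bases after the annotated start was matched by symbol in RefSeq (GRCm38.p6) for 116 of the 123 genes. Vmn2r111, Vmn2r112 and Vmn2r116 are printed because the results below turn on them, and capitals mark the 10 positions at which the 3 sequences differ. They lie at chr17:22573224-22573523 (minus strand), chr17:22600898-22601197 (plus strand) and chr17:23384553-23384852 (plus strand). Vmn2r116 is the receptor of the male pheromone peptide ESP1.

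Vmn2r111: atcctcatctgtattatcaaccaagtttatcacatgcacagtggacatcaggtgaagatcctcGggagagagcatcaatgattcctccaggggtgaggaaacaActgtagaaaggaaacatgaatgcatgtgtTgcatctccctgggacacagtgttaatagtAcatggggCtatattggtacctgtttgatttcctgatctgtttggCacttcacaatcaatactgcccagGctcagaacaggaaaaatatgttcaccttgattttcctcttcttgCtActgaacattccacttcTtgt
Vmn2r112: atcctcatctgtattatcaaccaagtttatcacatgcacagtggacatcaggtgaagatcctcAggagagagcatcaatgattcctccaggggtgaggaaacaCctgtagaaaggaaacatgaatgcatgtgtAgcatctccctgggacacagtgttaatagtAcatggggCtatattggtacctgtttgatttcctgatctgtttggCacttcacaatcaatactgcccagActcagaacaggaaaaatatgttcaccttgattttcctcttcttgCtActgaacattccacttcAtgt
Vmn2r116: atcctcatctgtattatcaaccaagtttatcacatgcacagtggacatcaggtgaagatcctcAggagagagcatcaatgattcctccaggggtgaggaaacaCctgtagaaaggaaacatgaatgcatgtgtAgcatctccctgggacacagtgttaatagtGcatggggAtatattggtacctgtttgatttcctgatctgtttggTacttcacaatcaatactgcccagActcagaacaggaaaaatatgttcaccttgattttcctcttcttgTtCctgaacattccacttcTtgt

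Position by position, Vmn2r111 and Vmn2r112 differ at 5 places, Vmn2r112 and Vmn2r116 at 6, and Vmn2r111 and Vmn2r116 at 9. Vmn2r111 holds 1 CG dinucleotide and the other 2 hold none. A further pair shows how unlike members can be. The promoter of Vmn2r31 at chr7:7399578-7399877 (minus strand) is identical to that of Vmn2r33 and holds no CG, whereas that of Vmn2r81 at chr10:79247527-79247826 (plus strand) holds 4, shown in capitals.

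Vmn2r31: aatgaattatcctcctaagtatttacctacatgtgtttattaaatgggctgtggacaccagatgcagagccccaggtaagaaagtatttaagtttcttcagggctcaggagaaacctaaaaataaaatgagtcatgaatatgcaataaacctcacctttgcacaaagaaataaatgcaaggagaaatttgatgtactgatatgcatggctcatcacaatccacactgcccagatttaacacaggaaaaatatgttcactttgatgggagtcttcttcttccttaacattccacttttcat
Vmn2r81: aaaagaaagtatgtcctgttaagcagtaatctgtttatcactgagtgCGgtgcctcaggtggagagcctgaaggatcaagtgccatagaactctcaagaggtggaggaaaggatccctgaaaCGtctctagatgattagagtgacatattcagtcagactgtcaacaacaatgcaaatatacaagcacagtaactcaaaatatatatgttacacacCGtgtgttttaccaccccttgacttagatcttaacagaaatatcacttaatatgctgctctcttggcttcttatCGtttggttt

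Over the 117 promoters of the 116 genes the median number of CG dinucleotides was 1, against 14 over 20084 promoters of protein-coding genes, and the median GC content was 38.0% against 57.0%. A loose stand-in for the site that MEF2 proteins bind, CTA and TAG parted by any 4 bases, was searched on both strands. It occurred in 3 of the 117 promoters (2.56%), against 3.54% of all promoters. These are counts of the pattern and not of MEF2 sites. TATAAA, also on both strands, occurred in 27 (23.1%) against 12.7%.

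The authors' lists give 4 signal values per region, 2 for Cre and 2 for KO, on a scale that the sources used here do not state. Unlisted sequence carries no value, the depth behind a value is unknown, and regions were listed because they differ between genotypes. For each gene the values of its regions were summed per library. A gene is called higher or lower below where both KO sums exceeded, or both fell short of, the 2 Cre sums. With 2 values against 2, an exact two-sided permutation test cannot give a p below 0.33. The lists hold 504986 regions for H3K27me3 to 716658 for H3K9me2, and the values summed over a whole list were higher in KO for H3K9me2 and lower in KO for the other targets. Of the 123 genes, 88 had regions in all 4 lists, 23 in 1 to 3 lists and 12 in none.

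H3K9me2 was higher in KO over most of the family. Of 110 Vmn2r genes with a listed H3K9me2 region, 91 (82.7%) were higher in KO and 2 (1.82%) lower, Vmn2r84 and Vmn2r34. Among all 19169 genes with such a region, 39.8% were higher and 14.2% lower. In the share of genes higher, the other chemosensory families were near that background: 66 of 166 type 1 vomeronasal receptor genes (Vmn1r, 39.8%) and 455 of 1039 olfactory receptor genes (Olfr, 43.8%) were higher. The median log2 ratio of KO to Cre was 0.59 over the Vmn2r genes, 0.44 over Vmn1r, 0.48 over Olfr and 0.23 over all genes, so in their medians those families lay above all genes. Vmn2r genes held more listed regions than most (a median of 10.5 H3K9me2 regions against 5 over all genes). In all, 437 H3K9me2 regions fell to the 166 Vmn1r genes and 2595 to the 1039 Olfr genes, against 1262 to the 110 Vmn2r genes. The shares of these families were not matched for the number of regions per gene. Among genes with at least 5 regions, 78 of 93 Vmn2r genes were higher and 1 lower, against 41.6% and 10.7% of all such genes.

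These counts depend on how the libraries are scaled. When each library was scaled to the same median over its whole list, the median log2 ratio of all regions moved by -0.29 for H3K9me2, and 60 of the 110 genes were higher and 7 lower, against 22% and 31.6% of all genes. On that scale the median was 0.30 over Vmn2r genes, 0.17 over Vmn1r, 0.21 over Olfr and -0.07 over all genes. In the same scaling 45 of 166 Vmn1r genes (27.1%) and 324 of 1039 Olfr genes (31.2%) were higher.

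**Figure D1:**
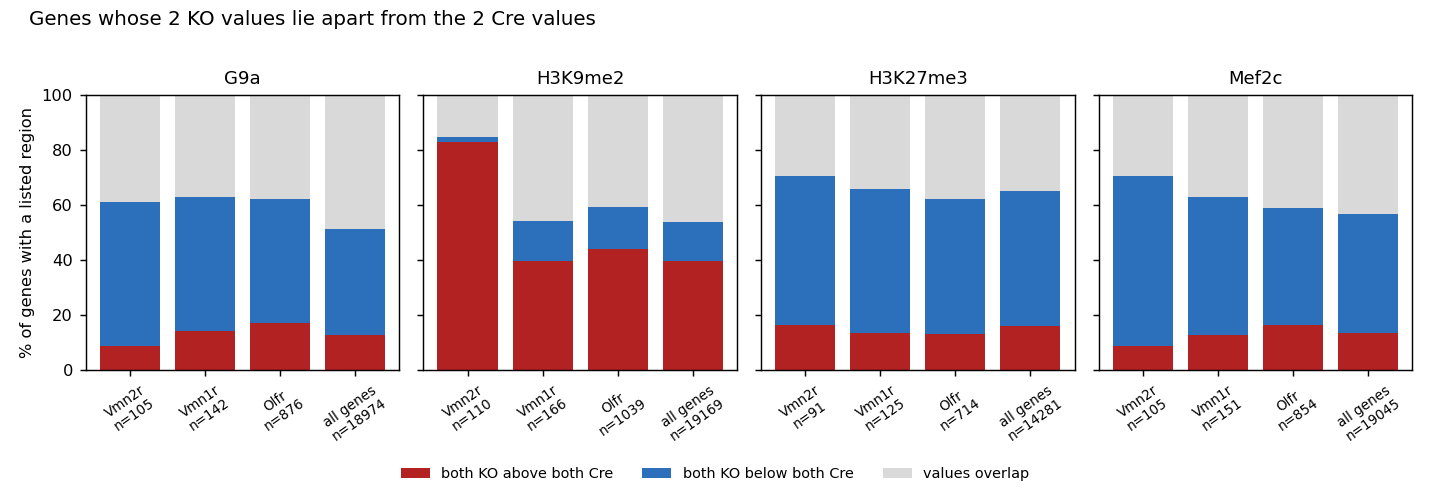
Share of genes with a listed region, in percent, whose 2 KO sums lay above both Cre sums (red), below both (blue) or overlapped them (grey), for Vmn2r, Vmn1r, Olfr and all protein-coding genes in the 4 lists. For H3K9me2 the red share is 82.7% in Vmn2r and 39.8% over all genes, while the shares differ less for the other 3 targets.

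At the level of single regions, 71.6% of the 1262 H3K9me2 regions at Vmn2r genes were higher in KO and the rest lower, against 60.3% higher and 39.7% lower in the whole list and 58.1% higher at protein-coding genes. The share higher was 65.0% at Vmn1r and 64.4% at Olfr genes. The family's summed H3K9me2 value was 142655 and 124603 in the Cre libraries and 198486 and 204169 in the KO libraries. Both KO sums lay above both Cre sums. The increase was present on chromosome 17, where 26 of 31 genes were higher and none lower, and outside it, where 65 of 79 were higher and 2 lower. Over all genes 39.8% were higher and 14.2% lower.

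Each of the 11 clusters had both KO sums above both Cre sums for H3K9me2. The smallest differences were in the family C cluster on chromosome 3 (log2 ratio 0.33) and in Vmn2r19 to Vmn2r27 on chromosome 6 (0.34). Values in the cluster of Vmn2r1 were 9172 and 7698 in Cre against 10100 and 11170 in KO. The largest difference was in Vmn2r111 to Vmn2r117 on chromosome 17 (1.04), where the values were 10787 and 9674 in Cre against 20212 and 21837 in KO. In Vmn2r29 to Vmn2r52 on chromosome 7 the ratio was 0.81, and in Vmn2r8 to Vmn2r17 on chromosome 5 it was 0.72. All 10 genes of the latter were higher, against 39.8% of all genes. Per kb of listed sequence, the Cre mean of H3K9me2 ranged over the 11 clusters from 105 in Vmn2r29 to Vmn2r52 to 138 in Vmn2r19 to Vmn2r27.

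**Figure D2:**
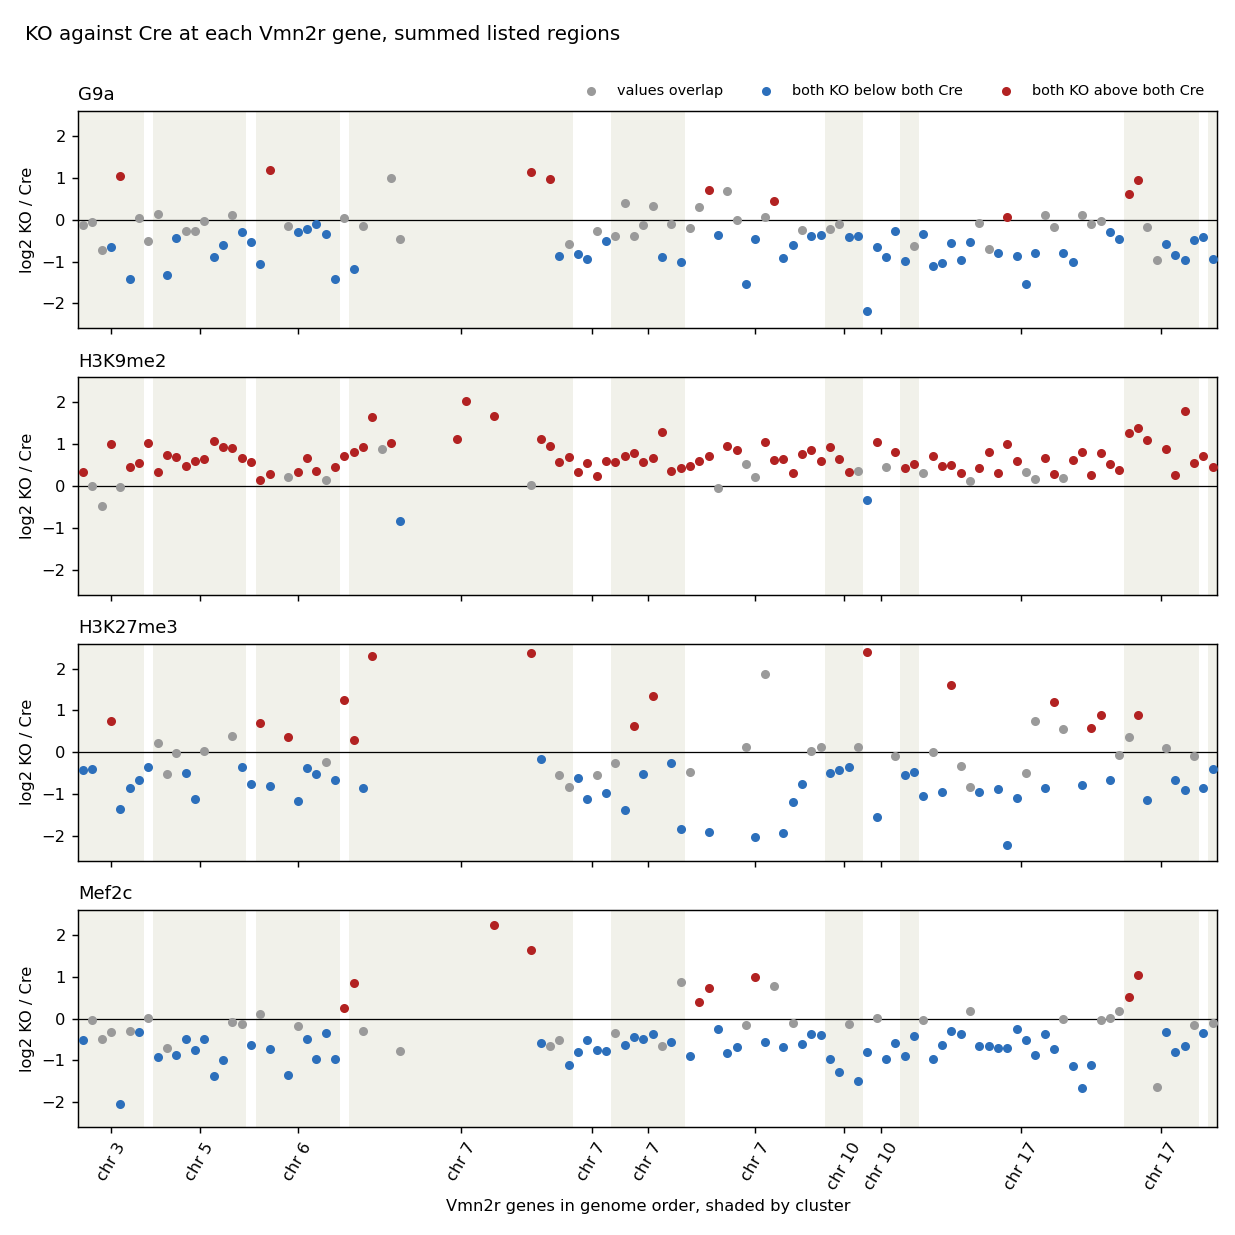
Log2 ratio of KO to Cre (y axis) of the summed listed regions of each Vmn2r gene, in genome order (x axis) with clusters shaded in turn, for the 4 targets. Red points have both KO sums above both Cre sums, blue points both below, and grey points overlap. H3K9me2 has 91 red and 2 blue points, and the other targets have mostly blue points with few red ones.

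G9a, Mef2c and H3K27me3 went the other way in most Vmn2r genes. For G9a, 55 of 105 genes (52.4%) were lower in KO and 9 (8.57%) higher, against 38.5% lower and 12.9% higher over all genes. For Mef2c, 65 of 105 (61.9%) were lower and 9 (8.57%) higher, against 43.4% lower and 13.3% higher. For H3K27me3, 49 of 91 (53.8%) were lower and 15 (16.5%) higher, against 49.0% lower and 16.1% higher, so its shares were close to the background. Median log2 ratios over the Vmn2r genes were -0.39 for G9a, -0.50 for Mef2c and -0.47 for H3K27me3, against -0.26, -0.26 and -0.25 over all genes. They were lower still over Vmn1r genes (-0.756, -0.685 and -0.583) and over Olfr genes (-0.615, -0.539 and -0.575). The lower medians are thus not particular to Vmn2r genes.

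Much of the lower signal was shared with the whole lists. Under scaling of libraries to a common median, the median of all regions moved by 0.32 for G9a and Mef2c and by 0.28 for H3K27me3. Then 28 Vmn2r genes were lower and 20 higher for G9a (19.1% and 24.3% of all genes), 38 lower and 18 higher for Mef2c (20.6% and 31.5%) and 31 lower and 24 higher for H3K27me3 (23.6% and 30.4%). On that scale the medians over Vmn2r genes were -0.07, -0.18 and -0.19, and over all genes 0.06, 0.07 and 0.03. Among genes with at least 5 regions, 40 of 71 were lower and 4 higher for G9a (39.6% and 7.87% of all such genes), 46 of 68 and 4 for Mef2c (47.4% and 9.23%), and 26 of 40 and 2 for H3K27me3 (59% and 8.82%). Single regions at Vmn2r genes were lower in KO about as often as the list they came from: 64.5% of 851 for G9a (61.5% of the list lower, 38.5% higher), 64.2% of 763 for Mef2c (61.7% and 38.3%) and 63.0% of 478 for H3K27me3 (63.3% and 36.7%).

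The targets were also counted together in each gene, on the deposited scale. The separate shares of genes lower for G9a (52.4%) and higher for H3K9me2 (82.7%) are themselves above the background, and whether the targets met more often than their separate shares give was not tested. Of 104 genes with regions in both lists, 43 (41.3%) were lower for G9a and higher for H3K9me2, against 14.8% of 18193 genes. A single gene was lower for both targets, Vmn2r84 on chromosome 10 (0.962% against 5.76%). Of 91 genes with regions of both histone marks, 45 (49.5%) were higher for H3K9me2 and lower for H3K27me3, against 18.3% of genes. The full pattern, H3K9me2 higher and the other 3 targets lower, was found in 15 of 88 genes (17%), against 5.35% of 13090 genes, while none was lower in all 4 (2.13%). These 15 lie in 8 places of the family and include Vmn2r18, Vmn2r27, Vmn2r56, Vmn2r91, Vmn2r99, Vmn2r116 and Vmn2r118. G9a and Mef2c were both lower in 33 of 103 genes (32.0%), against 19.4%. Joint counts were not made on the scaled values, where 28 genes were lower for G9a.

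Vmn2r56 on chromosome 7, a V2R with no known ligand, shows that pattern with many regions. Its summed H3K9me2 value was 1925 and 1875 in Cre against 2825 and 2905 in KO. For H3K27me3 the values were 3825 and 3137 in Cre against 1885 and 1668 in KO. For G9a they were 1867 and 2259 in Cre against 1550 and 1357 in KO. For Mef2c they were 2033 and 1856 in Cre against 930 and 1330 in KO. In each of the 4 targets the 2 genotypes did not overlap. Its strongest H3K27me3 region, chr7:12720101-12722050, had values of 575 and 425 in Cre against 111 and 193 in KO.

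A limma fit over the sums of all genes with a listed region (log2 of the sum plus 1, Benjamini-Hochberg adjustment) gave calls at an adjusted p under 0.05 in 3 of the targets. Since the authors listed regions because they differ, its p-values come out too small and only rank genes. For H3K9me2, 12 of the 110 Vmn2r genes were called, all higher, against 1.44% of 19169 genes. For Mef2c, 11 of 105 were called, 10 lower and 1 higher, against 4.69% of 19045. For H3K27me3, 7 of 91 were called, 6 lower and 1 higher, against 13.1% of 14281, a smaller share than the background. For G9a the limma fit called none of the 105 Vmn2r genes, with 0 of 18974 genes called. Leaving out 1 value changed the counts over all genes as well as over the family. Without the first KO value, limma called 14 Vmn2r genes for G9a (13.3%), against 16.9% of all genes. Without either KO value, or without a trended prior, it called 0 of all 19169 genes for H3K9me2, and without the first Cre value 40 Vmn2r genes (36.4%) against 12.4% of all genes. For H3K27me3 no Vmn2r gene was called without either Cre value, where 0.049% and 0.007% of all genes were. For Mef2c 29 were called without the second KO value (27.6% against 12.2%), 2 without the first Cre value (1.9% against 0.0945%) and none without the second (0.0735% of all genes). At an unadjusted p under 0.05, limma had 65 of the 110 genes higher for H3K9me2 and 0 lower (17.7% and 3.14% of all genes). For G9a it had 2 higher and 19 lower (2% and 10.5%), for H3K27me3 6 and 25 (5.36% and 27.8%), and for Mef2c 4 and 37 (3.63% and 21.4%).

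Fitted to single regions, limma called no Vmn2r region in any list, with 0.00119% of the H3K27me3 list and 0% of the others called. Without the first KO value it called 73 of the 851 Vmn2r regions for G9a, in a setting that called 64315 of the 621134 regions of the list. At an unadjusted p under 0.05 the H3K9me2 regions of Vmn2r genes split into 176 higher and 19 lower of 1262 (8.19% and 2.89% of the list). The split was 13 and 58 of 851 for G9a (1.38% and 5.12%), 18 and 64 of 478 for H3K27me3 (3% and 12.3%) and 29 and 104 of 763 for Mef2c (2.66% and 8.62%).

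For H3K9me2 the called genes were spread over the family. They are Vmn2r129 on chromosome 4, Vmn2r16 on chromosome 5, Vmn2r45, Vmn2r59, Vmn2r73 and Vmn2r78 on chromosome 7, Vmn2r80 on chromosome 10, and Vmn2r98, Vmn2r111, Vmn2r112, Vmn2r114 and Vmn2r116 on chromosome 17. With libraries scaled to the same median, 7 of them were called, Vmn2r129, Vmn2r73, Vmn2r78, Vmn2r80, Vmn2r111, Vmn2r112 and Vmn2r116.

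Summed together, the chromosome 17 genes differed little from the rest. The log2 ratio of summed values on chromosome 17 was 0.62 for H3K9me2, -0.37 for G9a, -0.30 for H3K27me3 and -0.28 for Mef2c, and outside it 0.58, -0.30, -0.41 and -0.48. Scaling to the same median turned 2 of these signs, to 0.04 for Mef2c on chromosome 17 and to 0.02 for G9a outside it. Within a library, the log2 ratio of the chromosome 17 sum to the sum of the other genes does not depend on scaling. Its KO mean minus its Cre mean was -0.07 for G9a, with overlapping values, and 0.04 for H3K9me2, 0.11 for H3K27me3 and 0.20 for Mef2c, where the KO values lay above the Cre values (exact permutation p 0.33, the smallest possible).

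The 2 clusters of chromosome 17 differed from each other in all 4 targets. In the cluster of Vmn2r90 the log2 ratio was 0.45 for H3K9me2, -0.51 for G9a, -0.54 for H3K27me3 and -0.47 for Mef2c, each without overlap of the genotypes. In the cluster of Vmn2r111 it was 1.04 for H3K9me2, without overlap, and -0.00 for G9a, 0.00 for H3K27me3 and 0.07 for Mef2c, with overlap. The within-library ratio of the second cluster to the first was higher in KO than in Cre by 0.58 for H3K9me2, 0.53 for H3K27me3, 0.52 for G9a and 0.53 for Mef2c on the log2 scale. In each target both KO ratios lay above both Cre ratios (exact permutation p 0.33 in each, the smallest possible).

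**Figure D3:**
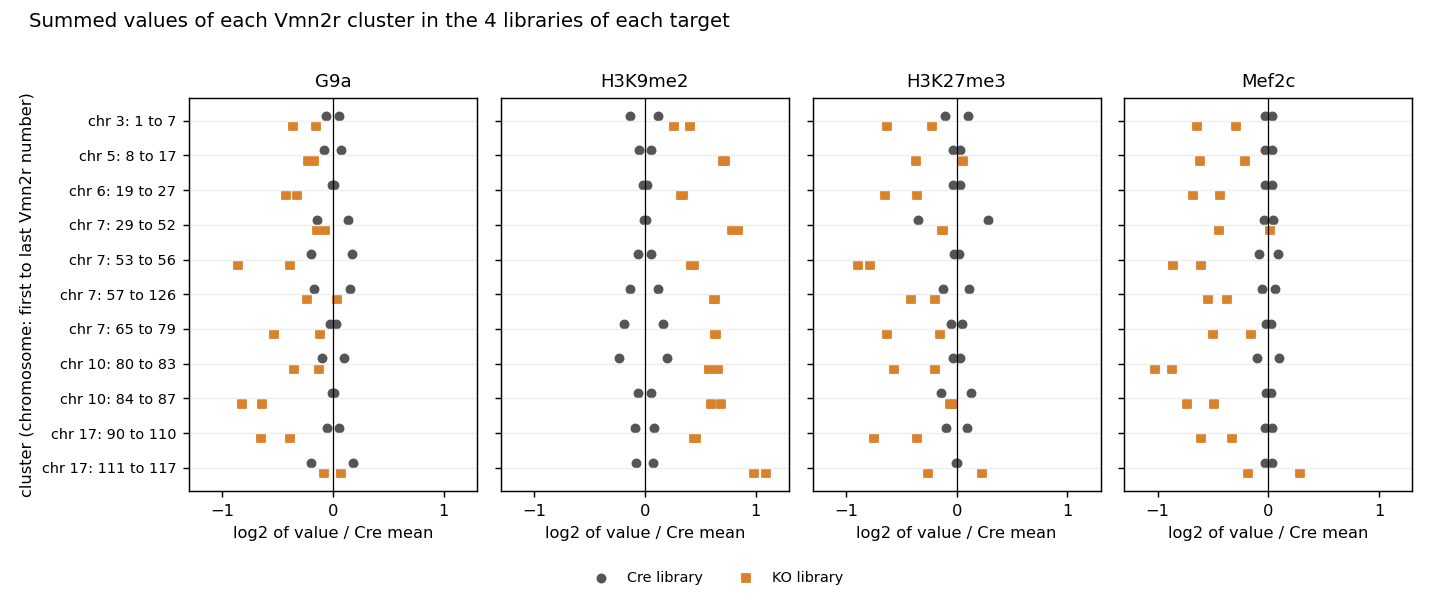
Summed value of each cluster of 3 or more Vmn2r genes in each library (x axis, log2 of the value over the mean of the 2 Cre values; rows, clusters named by chromosome and by the first and last gene number). Grey circles are Cre and orange squares KO libraries. For H3K9me2 every square lies right of both circles, and the KO squares of Vmn2r111 to Vmn2r117 lie right of those of Vmn2r90 to Vmn2r110 in all 4 panels.

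For G9a and Mef2c that difference lay in 2 neighbouring genes, and for the histone marks in part. Vmn2r111 (chr17:22547941-22573273) and Vmn2r112 (chr17:22601148-22619133) are read in opposite directions away from a shared gap of 27.9 kb. For H3K9me2, Vmn2r112 had values of 2385 and 1559 in Cre against 5040 and 5294 in KO. For G9a it had 1375 and 1476 in Cre against 2989 and 2482 in KO. For Mef2c it had 1517 and 1124 in Cre against 2242 and 3159 in KO. For H3K27me3 it had 529 and 614 in Cre against 985 and 1129 in KO. Vmn2r112 was higher in KO in all 4 targets, the only one of 88 Vmn2r genes with regions in all 4 lists for which this held, against 50 of 13090 genes (0.382%). It remained higher in all 4 with libraries scaled to the same median.

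Vmn2r111 followed it in 3 targets. Its H3K9me2 values were 2946 and 3035 in Cre against 6975 and 7508 in KO. Its G9a values were 1289 and 2309 in Cre against 2435 and 3067 in KO, and its Mef2c values 1081 and 1266 in Cre against 1625 and 1758 in KO. These 3 did not overlap, whereas H3K27me3 did, with 1235 and 1391 in Cre against 1252 and 2144 in KO. With libraries scaled to the same median its H3K27me3 values did not overlap either (log2 ratio 0.64), so on that scale Vmn2r111 too was higher in all 4 targets. In the limma fit, H3K9me2 at Vmn2r111 had a log2 change of 1.27 ± 0.17 (SE, adjusted p = 0.000141), and at Vmn2r112 of 1.42 ± 0.21 (SE, adjusted p = 0.000322). Over 12 alternative settings the limma adjusted p at Vmn2r112 ran from 1.681e-11 to 0.691, with 9 of the 12 under 0.05 and log2 changes of 1.11 to 1.73. Among these 12 settings, the filter on regions with a mean under 10 removed no region and so repeats the main fit. This holds for each count out of 12 given below as well. For Mef2c, Vmn2r112 was the only Vmn2r gene called higher (limma log2 change 1.03 ± 0.21 SE, adjusted p = 0.0126). For H3K27me3 it was likewise the only one called higher (0.89 ± 0.27 SE, limma adjusted p = 0.0409). The Mef2c call held in 10 of the 12 settings (limma adjusted p 0.00129 to 0.254) and the H3K27me3 call in 4 of 12 (0.0281 to 0.230).

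Set against the other 6 genes of the cluster within each library, the pair was higher in KO by 0.62 for H3K9me2, 0.75 for H3K27me3, 1.40 for G9a and 1.24 for Mef2c on the log2 scale, without overlap of the genotypes. Those 6 genes alone had log2 ratios of 0.71 for H3K9me2, -0.20 for H3K27me3, -0.61 for G9a and -0.40 for Mef2c. Without the pair, the chromosome 17 difference from the other genes turned to -0.08 for H3K9me2 and to -0.02 for H3K27me3. The pair was set apart after its values were seen, and setting apart high genes favours such differences. These contrasts are descriptions and test nothing.

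The strongest H3K9me2 region of the whole family lies inside Vmn2r112, at chr17:22606701-22612600. It spans 5900 bases, with values of 688 and 252 in Cre against 1865 and 1849 in KO, and the authors' -log10 p was 189. The strongest at Vmn2r111 lies beside the gene at chr17:22573951-22579250, with 582 and 276 in Cre against 1462 and 1703 in KO (-log10 p 150). Of the 26 H3K9me2 regions at the pair, 23 were higher in KO. The gap between the 2 gene windows behaved alike for H3K9me2, with 11 of 11 regions higher and sums of 1446 and 1561 in Cre against 3060 and 3330 in KO. For Mef2c all 7 regions in the gap were higher (976 and 1004 in Cre, 1341 and 2079 in KO). For H3K27me3 the gap held 4 higher and 2 lower regions, and the sums were higher without overlap (612 and 692 in Cre, 850 and 822 in KO). For G9a the gap held 7 higher and 6 lower regions and the sums overlapped (1128 and 1587 in Cre, 1540 and 1509 in KO).

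In steps of 20 kb from the start of Vmn2r112, H3K9me2 was higher in KO without overlap in each step from 80 kb before the start to 80 kb after it. For G9a this held from 60 to 40 kb before it and from the start to 40 kb after it. For H3K27me3 it held from 60 to 40 kb before it and from 20 kb before to 20 kb after it, and for Mef2c from 40 kb before to 20 kb after it and from 40 to 60 kb after it. Farther out, from 80 to 100 kb after the start and from 140 to 120 kb before it, G9a, H3K27me3 and Mef2c were all lower in KO. H3K9me2 overlapped from 80 to 100 kb after the start and from 100 to 80 kb before it. In the steps from 140 to 100 kb before the start, H3K9me2 was again higher in KO without overlap.

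**Figure D4:**
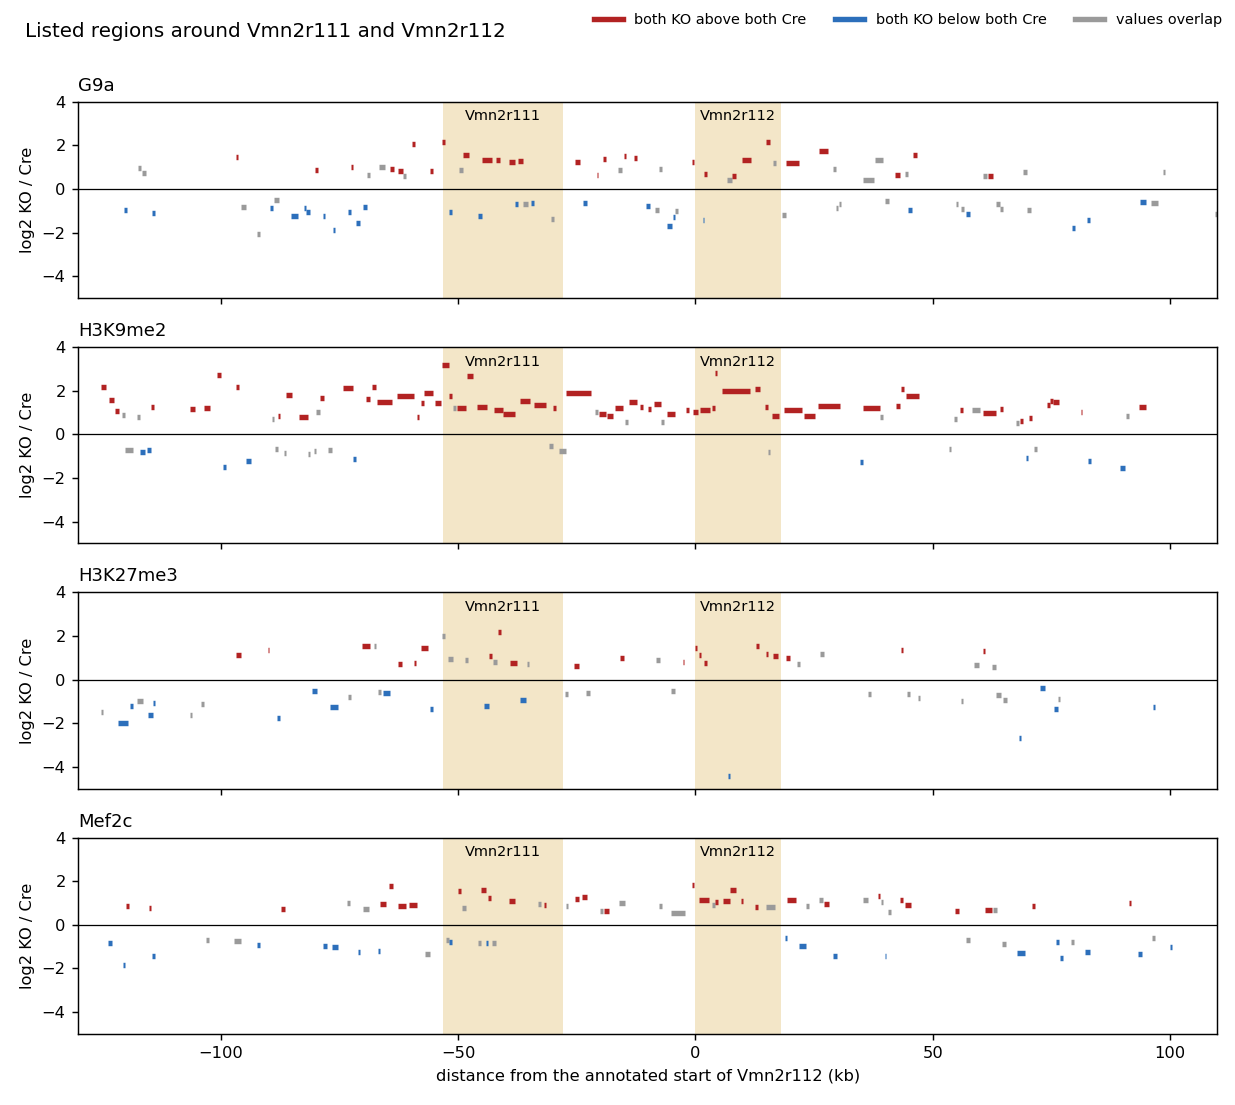
Listed regions around Vmn2r111 and Vmn2r112 (x axis, kb from the annotated start of Vmn2r112; bar length, region length; y axis, log2 ratio of KO to Cre) for the 4 targets, with the gene spans shaded. Red bars have both KO values above both Cre values, blue bars both below, and grey bars overlap. Red bars fill the H3K9me2 panel between the 2 genes, and at both genes red bars outnumber blue ones in each panel.

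The near-identical promoters of the pair did not move together. The H3K9me2 region over the promoter of Vmn2r112 (chr17:22600551-22601700) had values of 208 and 90 in Cre against 289 and 328 in KO. That over the promoter of Vmn2r111 (chr17:22572451-22573950) had 237 and 316 in Cre against 90 and 238 in KO, a lower mean in KO with overlapping values. Over the promoter of Vmn2r112 a G9a region (35 and 58 in Cre, 107 and 117 in KO) and an H3K27me3 region (37 and 8 in Cre, 46 and 81 in KO) were also higher. The sequences differ at 5 positions, and the placing of reads from such copies is not described, which makes values at single copies uncertain.

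Vmn2r116, the ESP1 receptor, lies farther along the same cluster and had the largest H3K9me2 ratio of the chromosome 17 genes. Its H3K9me2 values were 178 and 259 in Cre against 759 and 758 in KO. The groups did not overlap, and the limma log2 change was 1.82 ± 0.39 (SE, adjusted p = 0.0222). It was called in 8 of 12 alternative settings (limma adjusted p 0.000214 to 0.691), and with a 5 kb flank the log2 change was 0.82 and the gene was not called (limma adjusted p = 0.1045). Unlike Vmn2r112 it was lower in KO for G9a (316 and 492 in Cre, 176 and 235 in KO), for H3K27me3 (477 and 461, 219 and 285) and for Mef2c (278 and 375, 211 and 202). Scaled to the same median, its G9a and Mef2c values overlapped. Its neighbour Vmn2r114, another close copy, had H3K9me2 values of 1866 and 1776 in Cre against 3225 and 3473 in KO, and G9a values of 1622 and 2480 in Cre against 1192 and 1534 in KO.

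In the cluster of Vmn2r90, H3K9me2 was higher in KO in 17 of 22 genes and lower in none, against 39.8% and 14.2% of all genes. For G9a, 14 of the 22 were lower, against 38.5% of all genes, and Vmn2r98 alone was higher, by a log2 ratio of 0.07. Vmn2r100 had G9a values of 437 and 460 in Cre against 85 and 222 in KO, a log2 ratio of -1.54. Vmn2r124 (1073 and 1292 in Cre, 614 and 485 in KO) and Vmn2r91 (2625 and 2649 in Cre, 1057 and 1523 in KO) came next. For Mef2c, 16 of 22 genes were lower, against 43.4% of all genes, and none higher, led by Vmn2r106 (275 and 162 in Cre, 46 and 91 in KO), Vmn2r105 (1005 and 929, 453 and 429) and Vmn2r107 (1343 and 1259, 507 and 705). In none of these named genes did the genotypes overlap. Scaled to a common median, the counts in this cluster were 8 lower and 2 higher for G9a, 12 lower and 4 higher for Mef2c, and 9 higher and 0 lower for H3K9me2. Over all genes the scaled shares were 19.1% lower and 24.3% higher for G9a and 20.6% lower and 31.5% higher for Mef2c. For H3K9me2 they were 22% higher and 31.6% lower.

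H3K27me3 was unevenly spread in that cluster. Vmn2r90 had the largest summed value, with 3190 and 3255 in Cre against 1665 and 1470 in KO. Its limma log2 change was -1.04 ± 0.18 (SE, adjusted p = 0.00414), the smallest adjusted p of any Vmn2r gene for this mark. Other genes had fewer regions. Vmn2r98, from 1 region, had 118 and 170 in Cre against 36 and 24 in KO, without overlap (limma adjusted p = 0.1). Vmn2r99, from 5 regions, had 562 and 666 in Cre against 163 and 408 in KO. Higher values in KO were found at Vmn2r92 (73 and 80 in Cre, 219 and 253 in KO, from 2 regions) and at Vmn2r103 (136 and 232, 296 and 556, from 4 regions). In these genes the genotypes did not overlap. In the cluster of Vmn2r111, Vmn2r113 was lower for this mark, from 1 region (205 and 248 in Cre, 78 and 126 in KO).

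Outside chromosome 17, the largest Mef2c losses were on chromosomes 3, 6 and 10. Vmn2r83 had 744 and 1037 in Cre against 253 and 383 in KO, and its limma log2 change was -1.49 ± 0.33 (SE, adjusted p = 0.0182). Vmn2r22 had 709 and 795 in Cre against 259 and 328 in KO. Vmn2r5, a family C gene with 2 Mef2c regions, had 117 and 218 in Cre against 14 and 66 in KO, while its G9a values were higher in KO (214 and 152 in Cre, 369 and 386 in KO). Vmn2r81, whose promoter is printed above, had Mef2c values of 1913 and 2422 in Cre against 844 and 954 in KO, the smallest limma adjusted p of the family for Mef2c (0.00486, log2 change -1.26 ± 0.22 SE). Its H3K9me2 values were 2819 and 1909 in Cre against 3648 and 3715 in KO, higher without overlap.

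The largest G9a loss was at Vmn2r84 on chromosome 10, with 330 and 392 in Cre against 88 and 70 in KO. This gene also stood apart for the histone marks. Its H3K9me2 values were lower in KO (540 and 555 in Cre, 401 and 461 in KO), and its single H3K27me3 region was higher (18 and 18 in Cre, 91 and 108 in KO). Vmn2r71 (772 and 650, 301 and 190) and Vmn2r27 (1022 and 1278, 550 and 312) had the next largest G9a losses. Higher G9a values were found at Vmn2r20 (172 and 146 in Cre, 233 and 497 in KO) and, from 1 region, at Vmn2r48 (40 and 114, 143 and 202). In none of these comparisons did the genotypes overlap, and limma called none of them for G9a.

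For H3K27me3 outside chromosome 17, among genes with a mean value of at least 100 in 1 genotype, Vmn2r75 (194 and 196 in Cre, 19 and 82 in KO), Vmn2r67 (153 and 193, 6 and 85) and Vmn2r126 (134 and 175, 76 and 9) had the lowest ratios. Vmn2r61 (3 and 98, 117 and 143) and Vmn2r28 (89 and 171, 237 and 385) were higher. These 5 genes hold 1 or 2 H3K27me3 regions each, so each value rests on little sequence. Vmn2r28, a lone gene, was also higher for H3K9me2 (433 and 931, 1081 and 1159) and for Mef2c (685 and 714, 833 and 824), while its G9a values overlapped (413 and 156, 230 and 355).

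The family C genes form the cluster with the smallest H3K9me2 ratio. Vmn2r1 had 4396 and 4064 in Cre against 4870 and 5801 in KO (log2 ratio 0.33). Vmn2r2 had 1607 and 1856 in Cre against 1613 and 1853 in KO (0.00), and the groups overlapped. The span of Vmn2r2 lies within that of Vmn2r1, so their regions are shared in part. For H3K27me3 both were lower in KO, Vmn2r1 from 2627 and 2971 to 1956 and 2249 and Vmn2r2 from 1586 and 1493 to 1245 and 1090. Vmn2r26 on chromosome 6, which responds to MHC peptides, had H3K9me2 values of 2462 and 2117 in Cre against 2583 and 2461 in KO, with overlap, and lower G9a values in KO (982 and 1043 in Cre, 895 and 715 in KO). Under scaling to a common median the direction of such small differences is not fixed, since it moves H3K9me2 ratios by about -0.29.

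The cluster of Vmn2r29 to Vmn2r52 was nearly empty of listed regions. Its 24 genes held 53 H3K9me2, 18 G9a, 16 H3K27me3 and 15 Mef2c regions, and 10 of them had none in any list. For H3K9me2, the full length of the regions touching its gene windows came to 6.76% of the window length, against 28.6% over the family. Promoters of this cluster matched their closest other Vmn2r promoter at a median identity of 99.0%, and 12 of its 23 promoters reached at least 98%. Close copies elsewhere varied: 11 genes outside this cluster with an identity of at least 98% had a median of 31.2% of their window in listed H3K9me2 regions. The median was 32.3% for 83 genes outside it with a lower identity. Of the 11, Vmn2r62 and Vmn2r126, whose promoters are identical, had 6.24% and 4.65%, near the level of the cluster. Whether the likeness of copies bears on the listing was not tested. Within the cluster the medians were 4.34% of 12 genes at 98% or more and 3.03% of 10 genes under it.

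**Figure D5:**
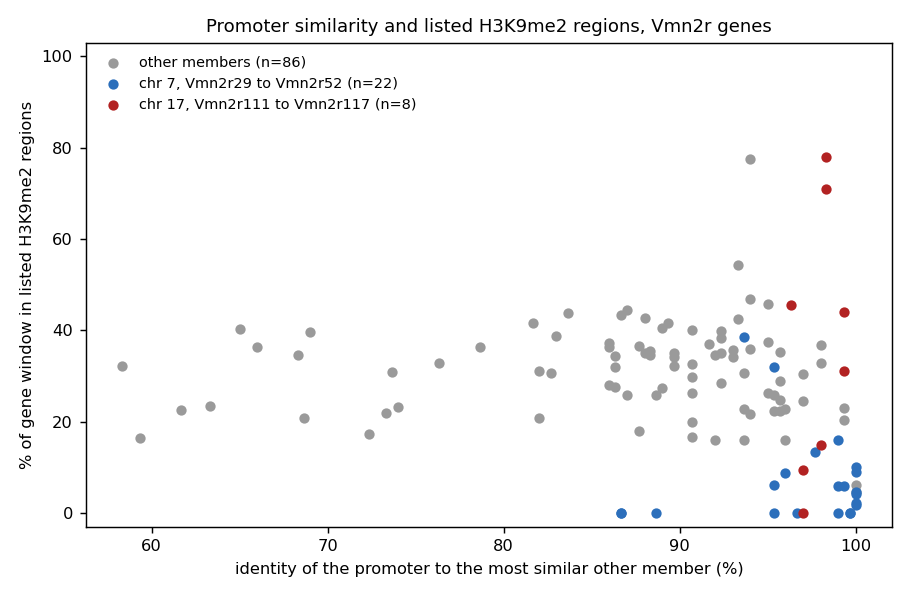
Identity of each Vmn2r promoter to the most similar other Vmn2r promoter (x axis, percent) against the share of the gene window in listed H3K9me2 regions (y axis, percent), 1 point per gene. Blue points, Vmn2r29 to Vmn2r52 on chromosome 7, lie mostly low, apart from 2 at the level of the other genes, while red points, Vmn2r111 to Vmn2r117 on chromosome 17, reach from the lowest to the highest shares at identities above 96%.

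Where the cluster did have H3K9me2 regions, 11 of 14 genes were higher in KO and 1 lower, against 39.8% and 14.2% of all genes. The cluster was not counted apart with scaled libraries. The 3 highest ratios outside chromosome 17 were all here: Vmn2r45 (75 and 127 in Cre, 460 and 371 in KO), Vmn2r38 (86 and 109, 317 and 310) and Vmn2r31 (22 and 83, 195 and 140), with 3, 2 and 1 regions. Vmn2r38 was also the highest for Mef2c (79 and 20 in Cre, 201 and 270 in KO), followed by Vmn2r48 (35 and 32, 95 and 118) and Vmn2r29 (69 and 93, 131 and 163). Vmn2r31 was higher for H3K27me3 (3 and 42, 155 and 77), from 1 region. Since the promoter of Vmn2r31 is shared letter for letter with Vmn2r33, the copy to which these values belong is uncertain. Using only genes whose promoter is at most 95% identical to any other, 57 of 71 were higher for H3K9me2 and 1 lower, a share close to that of the whole family.

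Listed regions seldom covered the promoters themselves. An H3K9me2 region touched 38 of 117 promoter windows (32.5%), against 21.1% of all promoters. For the other targets the share was below that of all promoters: 18 (15.4% against 25.3%) for G9a, 14 (12.0% against 29.5%) for H3K27me3 and 12 (10.3% against 24.2%) for Mef2c. At the promoters with an H3K9me2 region, 26 had only regions higher in KO (68.4%) and 11 only lower ones (28.9%), against 60.9% and 37.0% of the 4236 promoters of all genes with such a region. At Vmn2r81 the promoter's H3K9me2 region had values of 40 and 93 in Cre against 216 and 227 in KO.

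Genes of the same signalling system were taken from lists of ligands, co-receptors and transduction proteins, and their H3K9me2 counts are read against 39.8% higher and 14.2% lower over all genes. Of 14 Esp genes with an H3K9me2 region, which encode peptide pheromones such as ESP1, 11 were higher in KO and 1 lower (median log2 ratio 0.94). Of 18 Mup genes, which encode major urinary proteins that also act as ligands, 12 were higher and 1 lower. Of 8 H2-M genes, which encode class Ib molecules made beside V2Rs, 3 (37.5%) were higher and 1 lower, and of 9 listed signalling genes 4 (44.4%) were higher and 1 lower, shares near the background. For H3K27me3 all 8 H2-M genes with a region were lower, against 49% of all genes. For H3K9me2 none of the 5 formyl peptide receptor genes of the organ differed without overlap. The Esp, H2-M and formyl peptide receptor genes with listed regions all lie on chromosome 17, which carries Ehmt2. There the loss of G9a and sequence linked to its floxed allele cannot be told apart. The channel gene Trpc2 had H3K9me2 values of 187 and 301 in Cre against 390 and 429 in KO, and the G protein gene Gnao1 had overlapping values of 2740 and 3363 and of 2544 and 3234.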

How the data were processed

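The submitters' processing notes name BWA 0.7.10-r789, SAMtools 1.1 and the mm10 build for the ChIP-seq reads. The authors deposited 1 list per target of regions that differ between genotypes, each with 4 values of an undefined score-like scale (2 Cre, 2 KO) and a −log10 p. Region caller, normalization, input use and the order of libraries within a genotype: not given in the sources used here. Other columns of per-sample values numbered 0.

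Values were summed per gene and library over regions touching the gene or 2 kb either side. Sums and regions were tested with limma 3.58.1 in R 4.3.3 (log2 of the value plus 1, trended prior, Benjamini-Hochberg), which was tested on simulated data. Named genes are, per target and separately on and off chromosome 17, the 3 highest and 3 lowest ratios among genes without overlap and with a mean of at least 100 in the higher genotype, plus Vmn2r116, Vmn2r26, Vmn2r1 and Vmn2r2. Other genes were named after their values were seen. Members, lists and rules were chosen with earlier results of these data known. Alternatives changed the window, overlap, scaling, filters, pseudocount and trend, or left out a value.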

Additional observations from a re-analysis of the deposited data

How the results depend on the processing

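No paired analysis was possible because the deposited values carry no replicate number. Of the alternatives, 290 values counted as the same, 50 moved and 8 changed sign. Log2 ratios counted as the same by sign alone, whatever their size, gene and region counts by a fold limit, and shares by a confidence interval. The 290 include the filter on a mean under 10, which removed no region, and gene counts made without 1 value. With libraries scaled to the same median, genes without overlap numbered 20 higher and 28 lower for G9a, 60 and 7 for H3K9me2, 24 and 31 for H3K27me3, and 18 and 38 for Mef2c, and the log2 ratio turned to 0.0439 for Mef2c on chromosome 17 and to 0.0233 for G9a outside it. With promoters at most 95% identical (chosen after seeing the data, fewer genes) the higher counts were 57 of 71 for H3K9me2, 8 of 60 for H3K27me3, 2 of 71 for G9a and 4 of 71 for Mef2c. The lower counts were 32 of 60 for H3K27me3 and 1 of 71 for H3K9me2. Over all genes, not filtered by promoter, 39.8%, 16.1%, 12.9% and 13.3% were higher in the same order. For H3K27me3 49% of all genes were lower, and for H3K9me2 14.2%. With no flank 0 genes were lower for H3K9me2. At a −log10 p of 10 or more, 9 genes were higher for H3K27me3, and the share of regions lower in KO was 13.4% for H3K9me2, 72.0% for G9a, 77.6% for H3K27me3 and 80.3% for Mef2c. At that filter the shares over the whole lists and over all genes were not counted. These values therefore show no trait of Vmn2r genes in particular.

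Leaving out 1 value at a time, with a lone value assumed to vary like the others, gave these ranges. With fewer values, groups overlap less by construction, so the counts of higher and lower genes can only rise and are no check of stability. Shares of all genes higher or lower were not counted with 1 value left out. The number of genes higher ran from 96 to 100 for H3K9me2, 12 to 21 for G9a, 17 to 28 for H3K27me3, 10 to 20 for Mef2c. The number of genes lower ran from 3 to 6 for H3K9me2, 64 to 74 for G9a, 51 to 63 for H3K27me3, 67 to 85 for Mef2c. The number of genes called by limma ran from 0 to 40 for H3K9me2, 0 to 14 for G9a, 0 to 6 for H3K27me3, 0 to 29 for Mef2c. The number of regions called by limma ran from 0 to 73 for G9a and was 0 throughout for the others.

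The limma counts on gene sums (alternatives added after seeing the data) were 21, 41 and 31 for H3K27me3, H3K9me2 and Mef2c at a −log10 p of 10 or more, 2, 7 and 2 with scaled libraries, and 0 in each without a trend. With no flank 4 genes were called for H3K27me3, and with a 5 kb flank 12 for H3K27me3 and 20 for H3K9me2. These counts stand without the shares of all genes called in the same settings. They are therefore no result about Vmn2r genes in particular. The difference of chromosome 17 from the other genes turned to 0.0319 for G9a at a −log10 p of 10 or more, to -0.0531 for H3K27me3 and -0.0612 for H3K9me2 as a median over genes, and to -0.0003 for H3K9me2 with no flank. Without Vmn2r111 and Vmn2r112 (left out after seeing the data) it was -0.0194 for H3K27me3 and -0.0762 for H3K9me2. The cause was not tested. Depth is unknown, and unlisted sequence has no value.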

Other observations

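Neighbours of Vmn2r111 and Vmn2r112 shared part of the H3K9me2 difference. The zinc finger genes Zfp944 (249 and 99 in Cre, 481 and 609 in KO), Zfp758 (859 and 725, 1549 and 1462) and Zfp946 (488 and 821, 938 and 1418) were higher in KO without overlap. On the other side, Gm9805 overlapped (937 and 635, 649 and 1092), while Zfp945 (38 and 101, 306 and 404) and Vmn2r113 (241 and 123, 450 and 328) farther out were higher. For Mef2c, Zfp944 (784 and 580, 233 and 488), Zfp758 (973 and 777, 628 and 749) and Gm9805 (845 and 706, 476 and 614) were lower, whereas Vmn2r112 was higher.

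Esp34, a gene of the exocrine peptide pheromone family on chromosome 17, was higher in KO in all 4 targets, as Vmn2r112 was. Its values were 1702 and 1207 in Cre and 5864 and 5148 in KO for H3K9me2, and 1087 and 831 in Cre and 2183 and 2732 in KO for G9a. For H3K27me3 they were 186 and 228 in Cre and 776 and 911 in KO, and for Mef2c 1249 and 978 in Cre and 1614 and 2219 in KO. It remained higher in all 4 with libraries scaled to the same median. Esp1, which encodes the ligand of Vmn2r116, overlapped for H3K9me2 (640 and 347 in Cre, 570 and 349 in KO) and was lower for H3K27me3 (392 and 318 in Cre, 92 and 92 in KO).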
